A study of Mus musculus with 300 samples.

Results

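The genes described here are 42 mouse genes of the cell cycle and of DNA replication, given as a list of symbols. Of these, 41 were measured by at least 1 microarray probe set that named the gene alone, out of 18193 such genes. Ccnb1 was not analysed here. By role, 8 measured members license or open replication origins (Mcm2 to Mcm7, Mcm10 and Cdc6), 4 supply nucleotides or form the replication clamp (Tk1, Rrm1, Rrm2 and Pcna) and 4 control the passage from G1 to S phase (Ccnd1, Ccne1, Ccne2 and E2f1). Another 3 are later cyclins with their kinase (Ccna2, Ccnb2 and Cdk1), and 2 organise chromosomes (Mki67 and Top2a). The mitotic kinases, the spindle checkpoint and the ubiquitin ligase that ends mitosis give 10 (Aurka, Aurkb, Birc5, Bub1, Bub1b, Cdc20, Cdca8, Plk1, Ttk and Ube2c). Spindle motors and microtubule proteins give the other 10 (Aspm, Cenpe, Cenpf, Hmmr, Kif11, Kif20a, Kif23, Nusap1, Prc1 and Tpx2).

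The study dosed mice by mouth with an agonist of 1 of the 3 peroxisome proliferator-activated receptors, the lipid-sensing nuclear receptors called PPARs. The compounds were WY14643 for PPAR-alpha, GW501516 for PPAR-delta and rosiglitazone for PPAR-gamma, each at 10 mg/kg, with vehicle as the control, and tissues were taken on day 4, 8 or 15. Liver, heart, kidney and skeletal muscle of 75 mice gave 300 arrays, with 5 mice per compound and day and 10 vehicle mice per day. No group carried an engineered allele in the labels, and strain, sex and age are not given there. Mice, not arrays of one mouse, are the replicates within a tissue. Values are log2 array intensities, so a difference of 1 is a doubling. They rank a gene across arrays of the same tissue rather than genes against each other.

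Before S phase, helicases are loaded at origins with the help of Cdc6 and wait there as Mcm2 to Mcm7 rings. Cyclin D and cyclin E kinases then release E2F factors, which switch on genes for replication and nucleotide supply. Genes for the late cyclins, the spindle and the exit from mitosis follow in G2 phase, most of them through a shared promoter element, the CHR, that holds them silent in resting cells. Adult liver, kidney, heart and muscle hold few dividing cells, so most of these transcripts are low there. In rodent liver, PPAR-alpha agonists are known for inducing peroxisomes, liver growth and hepatocyte DNA synthesis.

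Promoters are shown for the 4 genes that fell in kidney under WY14643, described below, and that carried a CHR element within 250 bases before their start. They are Ccnb2, Cdk1, Ube2c and Mki67. Of the 9 members that fell there, 7 had a promoter entry, and the other 3 of these, Aspm, Mcm10 and Tk1, held no CHR letters in that window. Ccna2 and Tpx2 had no entry. The CHR letters also stood before Cdc20, Kif11, Mcm2, Prc1 and Top2a, which were not called in kidney under WY14643 and are not printed. Capitals mark 3 motifs found by letter search on both strands: the CHR (TTTGAA where it lies on the gene's strand or TTCAAA on the other), the CCAAT box bound by NF-Y (CCAAT where it lies on the gene's strand or ATTGG on the other) and cores bound by E2F factors (TTCCCGC or TTGGCGC or TTCGCGC or TTGCCGC, or their reverse complements). Where CCAAT boxes on both strands adjoin, the capitals run together. The sequences are from RefSeq, build GRCm38.p6, printed 5′ to 3′ on the gene's strand.
Ccnb2: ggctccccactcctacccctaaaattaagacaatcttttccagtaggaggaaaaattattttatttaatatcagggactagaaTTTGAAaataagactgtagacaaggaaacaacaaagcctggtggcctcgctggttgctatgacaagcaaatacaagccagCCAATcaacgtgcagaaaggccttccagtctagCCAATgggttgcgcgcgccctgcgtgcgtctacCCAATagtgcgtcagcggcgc
Cdk1: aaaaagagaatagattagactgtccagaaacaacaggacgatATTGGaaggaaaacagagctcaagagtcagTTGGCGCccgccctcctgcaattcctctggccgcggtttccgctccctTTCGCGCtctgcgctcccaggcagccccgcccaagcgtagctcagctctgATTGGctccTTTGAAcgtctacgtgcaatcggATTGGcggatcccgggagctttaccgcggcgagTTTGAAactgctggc
Ube2c: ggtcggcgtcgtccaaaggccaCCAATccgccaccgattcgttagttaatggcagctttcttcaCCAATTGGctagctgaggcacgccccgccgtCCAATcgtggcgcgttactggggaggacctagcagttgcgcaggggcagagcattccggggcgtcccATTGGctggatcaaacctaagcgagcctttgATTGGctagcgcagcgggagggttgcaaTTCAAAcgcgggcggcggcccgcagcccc
Mki67: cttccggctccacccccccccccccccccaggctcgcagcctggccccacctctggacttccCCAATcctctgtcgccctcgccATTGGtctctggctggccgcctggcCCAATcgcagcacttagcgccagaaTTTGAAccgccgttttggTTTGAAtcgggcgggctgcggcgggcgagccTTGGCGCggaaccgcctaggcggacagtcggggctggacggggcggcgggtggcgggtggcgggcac

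The Ccnb2 stretch is chr9:70421555-70421804 on the minus strand, with 1 CHR 167 bases before the start and 3 CCAAT boxes. The Cdk1 stretch is chr10:69352913-69353162 on the minus strand, with CHR elements 71 and 15 bases before the start, 3 CCAAT boxes and 2 E2F cores. The Ube2c stretch is chr2:164769679-164769928 on the plus strand, with 1 CHR 29 bases before the start and 6 CCAAT matches. The Mki67 stretch is chr7:135716380-135716629 on the minus strand, with 2 CHR elements, the nearer 98 bases before the start, 3 CCAAT boxes and 1 E2F core. RefSeq promoters were matched for 35 of the 42 members. The CHR letters stood in 9 of those 35 (25.7%), against 15.99% of all 32851 promoters of the same length, and the CCAAT letters in 29 (82.9%), against 33.8%. An E2F core stood in 10 of the 35 (28.6%), against 7.89% of all promoters. The core hexamer that nuclear receptors share (AGGTCA, both strands) stood in 4 members (11.4%), against 14.0%. Its direct repeat spaced by 1 base (AGGTCANAGGTCA), the form PPARs are known to bind, stood in 0 of 35, against 0.0335% of all promoters. A member counted where any of its promoter entries held the letters, whereas the shares of all promoters are per entry. Mcm7 and Prc1 had more than 1 entry, and for Prc1 the CHR letters stood in only 1 of them. A match of letters is a description of the sequence, not of binding.

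Each tissue was checked against marker genes of its main cell type. The mean of the hepatocyte markers lay between 14.24 and 14.45 on every liver array, and that of the kidney tubule markers between 11.15 and 11.40 on kidney arrays under WY14643, against 10.97 and 11.38 with vehicle. The lowest kidney array, under GW501516, had a tubule marker mean of 10.38. In muscle the skeletal fibre markers averaged 12.86 to 13.41. In heart the cardiomyocyte markers, which were Myh6, Nppa, Tnni3, Myl7 and Myl4, spread from 10.81 to 14.67. Whether this spread is one of cardiomyocyte content or of the part of the heart taken was not tested. Markers of other organs also read high on some heart and muscle arrays: the hepatocyte markers averaged 6.46 to 12.52 in heart and 3.86 to 11.74 in muscle, and the tubule markers reached 8.86 in heart. Their part in the results of heart and muscle was not tested. In each tissue part of the members lay under the 40th percentile of all genes by their level: 16 of 41 in liver, 20 in heart, 19 in kidney and 25 in muscle. These are whole tissues, so fewer dividing cells and less RNA per dividing cell cannot be told apart. Of 48 groups of arrays, 7 held 1 array whose mean over the members stood apart from its group by Dixon's test, 5 of them in liver. The liver arrays were WY14643 day 4 replicate 5 and day 8 replicate 1, and vehicle day 4 replicate 1, day 8 replicate 4 and day 15 replicate 10, and each was the highest of its group. The others were WY14643 day 8 replicate 4 in kidney, the lowest of its group, and GW501516 day 8 replicate 2 in muscle, the highest. All 7 arrays are kept below, and values without them are given where the text says so.

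In liver, the members varied more from mouse to mouse than most genes did. The median SD within groups was 0.611 over the members in liver, against 0.200 over all genes, and all 41 members lay above that second value. Without the 5 livers that stood apart the median SD was 0.445, against 0.196 over all genes, and 38 members lay above that all-gene median. In the other tissues it was 0.238 against 0.167 in heart, 0.304 against 0.229 in kidney and 0.354 against 0.245 in muscle. Pcna, the replication clamp, had the lowest SD of the members in each tissue, and Tpx2, a spindle assembly factor, the highest in liver, at 1.22. In liver the members also moved together: over the 75 arrays, with group means removed, the median correlation between pairs of members was 0.69, against 0.38 in heart, 0.17 in kidney and 0.18 in muscle. Without the arrays that stood apart it was 0.44 in liver, 0.17 in kidney and 0.12 in muscle. These arrays share RNA quality and scaling, so the correlations are descriptions only. Each member was also set against the mean of the other members in liver. Top2a, which untangles chromosomes, followed it most closely at 0.96 and Mki67, the Ki-67 antigen of dividing cells, stood at 0.92, whereas Tk1, a thymidine kinase, stood at -0.16 and Mcm10, which helps to start replication forks, at -0.19. Without the 5 livers that stood apart the values were 0.92 for Top2a, 0.87 for Mki67, -0.16 for Tk1 and 0.01 for Mcm10.

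The mean of all 41 members shows this spread. Under WY14643 on day 4, 4 livers read 6.21, 6.65, 6.75 and 6.84 and the last read 9.02, against a vehicle range of 6.34 to 7.36. On day 8 they read 6.60, 6.61, 6.64, 6.68 and 8.02, against 6.31 to 8.28 with vehicle, and on day 15 they read 6.39 to 7.32, against 6.38 to 7.88 with vehicle. A liver far above the rest of its group thus occurred with WY14643 and with vehicle. In the liver that read 9.02, the mean of the fibroblast and stellate cell markers was 10.12, against 8.23 to 9.31 in the other 4 livers of its group. Its hepatocyte markers averaged 14.38, against 14.31 to 14.40. The fibroblast markers of WY14643 day 8 replicate 1 (9.06, others up to 9.03) and vehicle day 8 replicate 4 (9.64, up to 9.58) lay slightly above their groups. So did vehicle day 15 replicate 10 (9.34, up to 9.20). Vehicle day 4 replicate 1, at 8.60, lay within the 8.38 to 9.23 of its group. Across all 75 livers the correlation of the members' mean with those fibroblast markers, group means removed, was 0.70, and it was 0.56 in heart, 0.27 in kidney and 0.47 in muscle. Without the arrays that stood apart it was 0.70 in liver, 0.29 in kidney and 0.43 in muscle. With macrophage markers, over all arrays, the correlation was 0.46 in liver, 0.38 in heart, 0.25 in kidney and 0.64 in muscle. That muscle value lay above the one of the fibroblast markers. Endothelial markers gave 0.38, lymphocyte markers 0.31 and adipocyte markers -0.36 in liver. What part these cells have in the members' level was not tested. In the mouse whose liver read 9.02, the members averaged 7.75 in heart, 5.64 in kidney and 5.01 in muscle, on scales that differ between tissues.

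**Figure D1:**
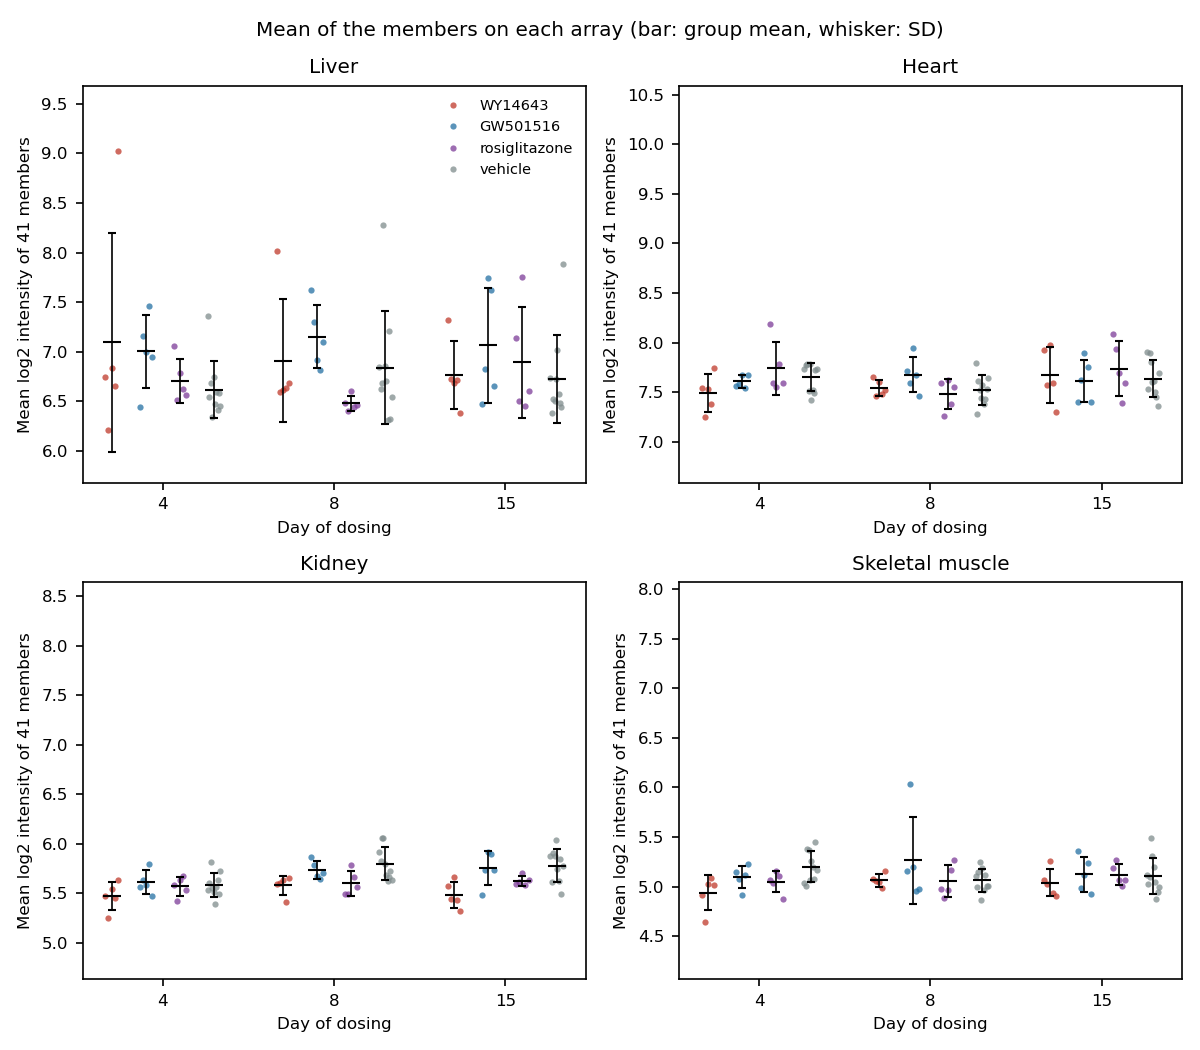
Mean log2 intensity of the 41 measured members on each array, by day of dosing, with 1 panel per tissue; points are arrays, bars group means and whiskers SDs. Single liver arrays reach 9.02 under WY14643 and 8.28 with vehicle, while most livers lie near 6.7 and the kidneys lie in a narrow band.

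Each compound was compared with same-day vehicle, averaged over the 3 days, in a model fitted to all 18193 genes of a tissue, with calls made where the adjusted p lay under 0.05. The compounds called 30 changes among the members over the 12 pairs of tissue and compound, in 17 genes, and 24 members were called in none. In kidney under WY14643, 9 members fell and 0 rose, which is 22.0% of the members, where 1.74% of all genes were called and 0.813% were called lower. In kidney under GW501516, 2 rose and 3 fell, 12.2% of the members against 6.79% of all genes, and under rosiglitazone 1 rose and 3 fell, 9.76% against 1.52%. In liver the share of members called, in either direction, lay below that of all genes: 4.88% against 11.2% under WY14643 (1 higher, 1 lower), 12.2% against 13.9% under GW501516 (5 higher, where 6.86% of all genes were higher), and 9.76% against 16.2% under rosiglitazone (4 higher, where 7.48% of all genes were). Among higher calls alone, the members' share of 12.2% under GW501516, from 5 members, lay above that of all genes. The 9.76% under rosiglitazone, from 4 members, lay near the share of all genes.

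Heart and muscle gave 1 called member in all. In heart it was 0 members under WY14643 (1.44% of all genes), 0 under GW501516 (4.17%) and 1 under rosiglitazone (7.51%). In muscle it was 0 under WY14643 (0.104%), 0 under GW501516 (0.857%) and 0 under rosiglitazone (1.65%). Without adjustment, p was under 0.05 for 2, 5 and 6 members in heart and for 6, 3 and 5 in muscle, in the same order of compounds. The members' median change was 0.19, 0.33 and -0.07 in liver and -0.17, -0.04 and -0.12 in kidney, again in that order, where the median over all genes lay near 0. All compounds in a tissue share the vehicle arrays, so these columns are not independent of each other.

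**Figure D2:**
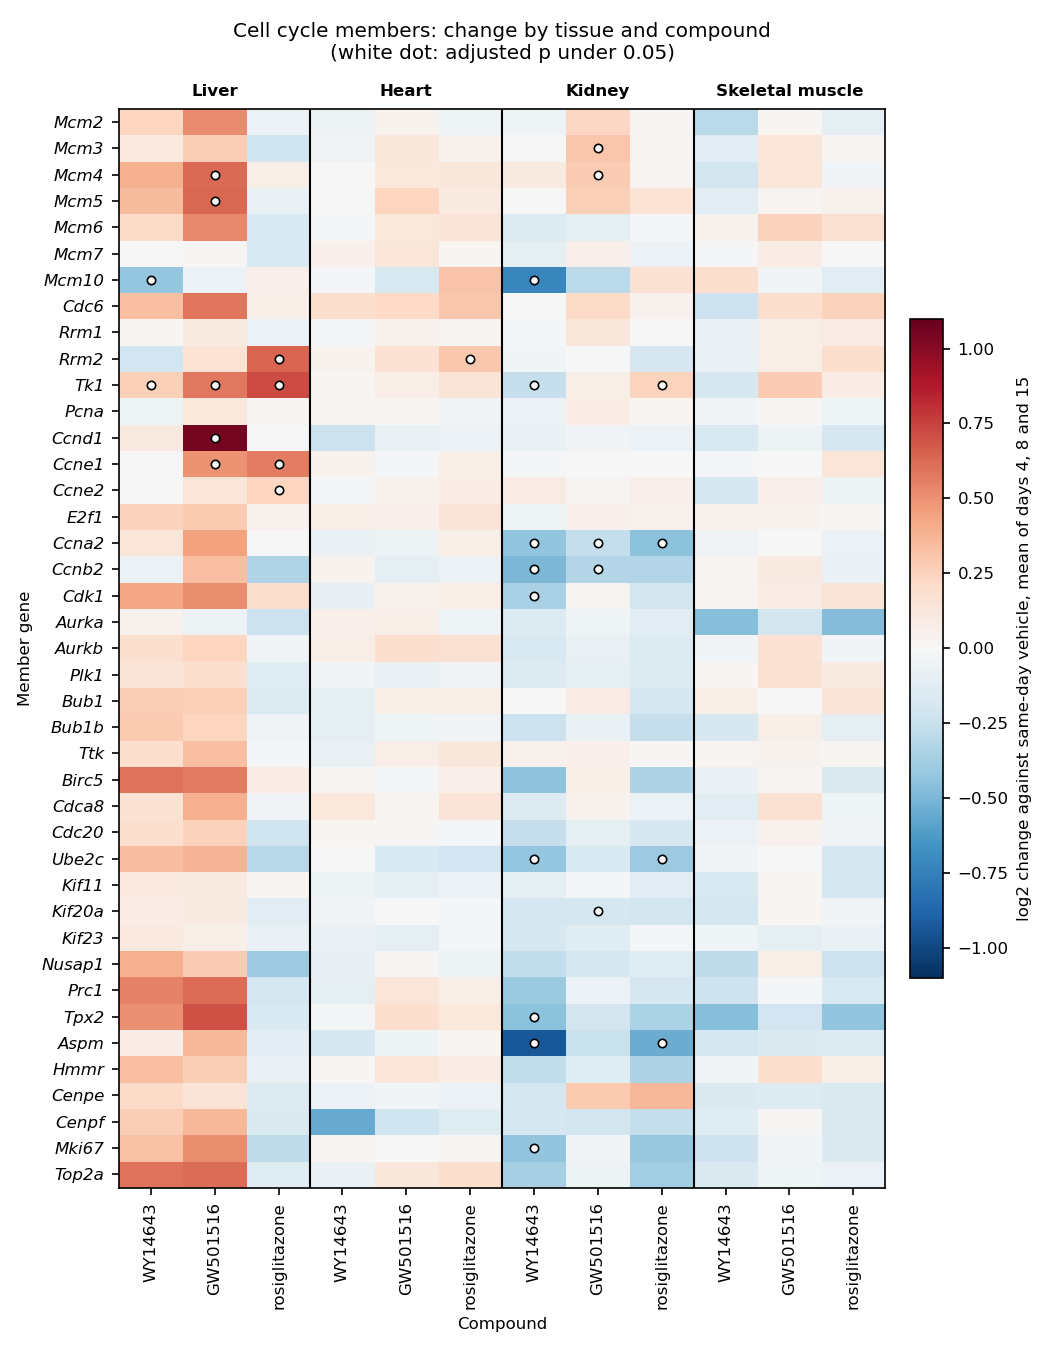
Log2 change of each of the 41 members (rows, by role) against same-day vehicle, averaged over days 4, 8 and 15, in the 12 pairs of tissue and compound (columns); white dots mark an adjusted p under 0.05. The kidney column of WY14643 holds 9 dots, all on lower values, and the 5 dots of GW501516 in liver are all on higher values.

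In kidney under WY14643, 9 of the 41 members fell and 0 rose. Of the 41, 36 had a lower mean than with vehicle, the median change was -0.17, and 19 had an unadjusted p under 0.05. The late cyclins and their kinase all fell: Ccna2, Ccnb2 and Cdk1, 3 of 3, with a median of -0.43. Of the 10 spindle and microtubule members, 2 fell and none had a higher mean, and 1 each fell among the 2 chromosome members, the 10 kinase and checkpoint members, the 8 origin members and the 4 nucleotide members. None of the 4 G1 to S members was called. Changes over all members ran from -0.93 for Aspm to 0.10 for Mcm4, a subunit of the replicative helicase.

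Aspm, a spindle pole protein, changed most. Aspm read 2.39, 2.55, 2.64, 2.77 and 3.40 in kidneys on day 4 of WY14643, 2.60, 2.75, 3.03, 3.40 and 3.41 on day 8, and 2.25, 2.64, 2.82, 2.86 and 2.97 on day 15. With vehicle the lowest, median and highest were 3.18, 3.35 and 4.04 on day 4, 3.23, 3.76 and 4.99 on day 8, and 3.37, 3.96 and 4.67 on day 15. The groups did not overlap on day 15, overlapped by 1 treated kidney on day 4 and by 2 on day 8. All 15 treated kidneys lay below the vehicle mean of their day, and the change was -0.93 ± 0.12 (SE; limma, adjusted p = 6.4e-08). Aspm is dim in kidney, with a mean of 3.42 at percentile 21.1 of all genes. Its 4 other probe sets, dimmer still, changed by -0.22 to -0.08, and none was called.

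Ccna2, the cyclin of S and G2 phase, stood on a brighter probe set. Ccna2 read 5.37, 5.85, 5.85, 6.10 and 6.52 on day 4 of WY14643, 5.71, 5.97, 6.20, 6.25 and 6.29 on day 8, and 5.84, 5.87, 5.88, 5.98 and 6.09 on day 15. With vehicle it had a lowest, median and highest of 5.90, 6.23 and 6.56 on day 4, 6.31, 6.49 and 6.85 on day 8, and 6.11, 6.48 and 6.89 on day 15. On days 8 and 15 the groups did not overlap, by narrow margins, and on day 4 the highest treated kidney lay near the top of the vehicle range. The change was -0.43 ± 0.08 (limma, adjusted p = 0.00011), with 14 of 15 kidneys on that side, and its 1 other probe set was called too. Ccnb2, a mitotic cyclin, fell by 0.50 ± 0.10 on the log2 scale (adjusted p = 0.002), with 12 of 15 kidneys below the vehicle mean. Ccnb2 read 3.27, 3.84, 4.15, 4.42 and 4.44 on day 15, against a vehicle lowest, median and highest of 4.28, 4.90 and 5.27, and the groups overlapped on each day.

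Mcm10 read 6.30, 7.01, 7.07, 7.20 and 7.39 in kidney on day 4 of WY14643, 6.37, 6.94, 6.99, 7.02 and 7.16 on day 8, and 5.32, 6.23, 6.69, 6.71 and 7.19 on day 15. The vehicle lowest, median and highest were 7.08, 7.96 and 8.23, then 6.70, 7.29 and 7.67, then 6.76, 7.28 and 8.02 for Mcm10. Treated kidneys overlapped the lower end of vehicle on each day, and all 15 lay below the vehicle mean. The change was -0.72 ± 0.11 (limma, adjusted p = 7.2e-06), and of 2 other probe sets, both lower, 1 was called, at -0.68. In kidney, Mcm10 followed the mean of the other members weakly (correlation 0.13 over 75 arrays, group means removed), where Top2a stood at 0.81.

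Mki67, lower in 14 of 15 kidneys, read 5.10, 5.20, 5.30, 5.52 and 5.75 on day 4 of WY14643, 4.79, 5.39, 5.67, 5.69 and 6.01 on day 8, and 5.14, 5.24, 5.34, 5.49 and 5.94 on day 15. With vehicle Mki67 had a lowest, median and highest of 5.22, 5.47 and 6.30 on day 4, 5.32, 5.93 and 6.84 on day 8, and 5.42, 6.04 and 6.50 on day 15. The groups overlapped on each day, and the change was -0.43 ± 0.12 (limma, adjusted p = 0.041), a call lost without 19 of the 45 arrays when each was left out alone. Tpx2 fell by 0.45 ± 0.12 (adjusted p = 0.035) on a dim probe set. Of its 3 others, 2 were lower, 1 was higher and none was called. The 3 further called members were named after their values were seen: Ube2c, the ubiquitin-conjugating enzyme of mitotic exit, fell by 0.43 ± 0.10 (adjusted p = 0.01), Cdk1, the mitotic kinase, by 0.36 ± 0.10 (adjusted p = 0.035) and Tk1 by 0.25 ± 0.07 (adjusted p = 0.033). Leaving out WY14643 day 4 replicate 2, or WY14643 day 15 replicate 5, gave 5 called members in place of 9, and without the kidney that stood apart 7 members were called. Counted over the 98 probe sets of the members, 12 fell and 0 rose.

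**Figure D3:**
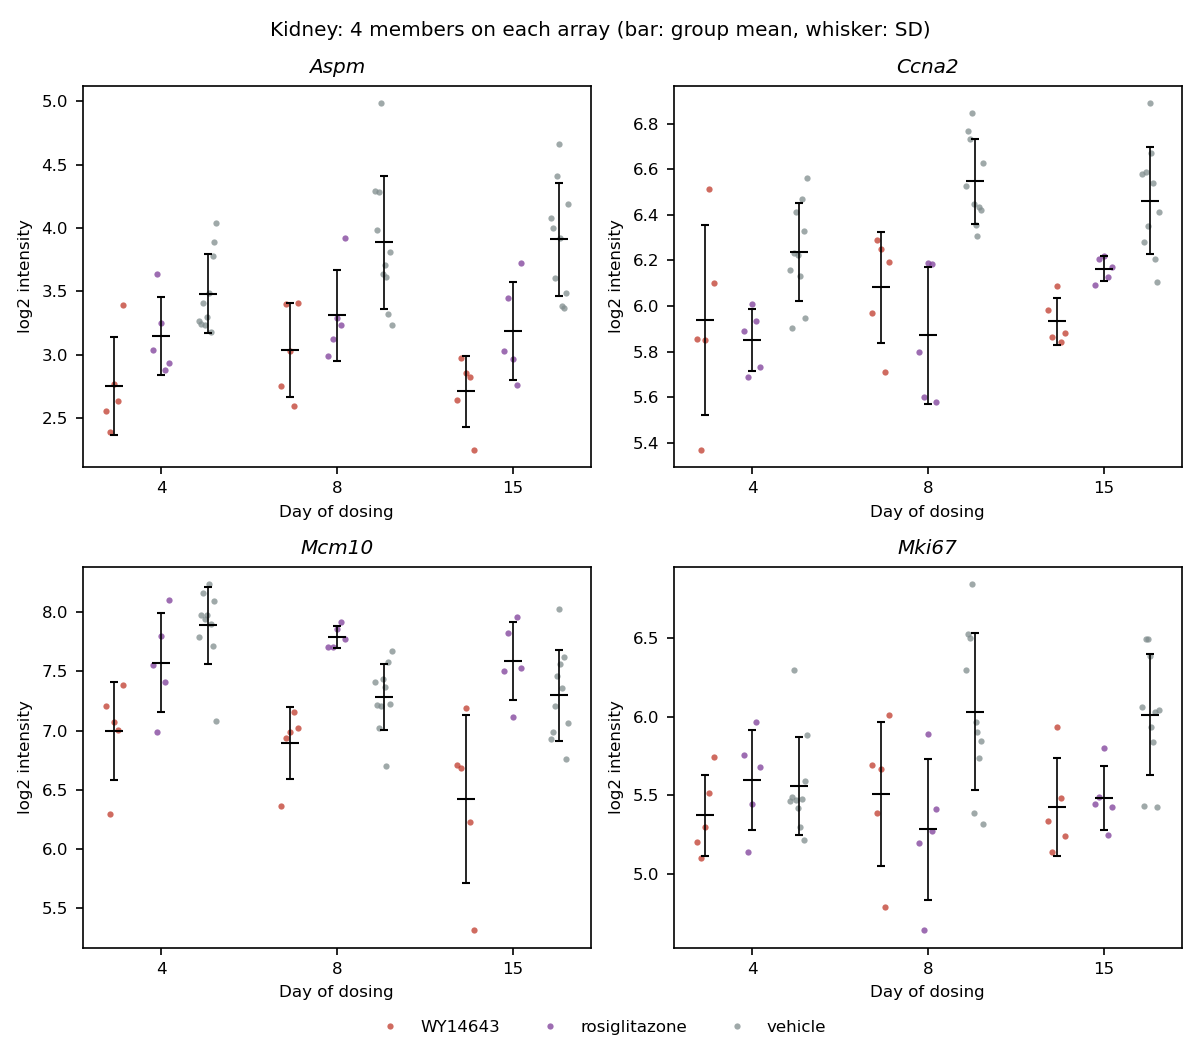
Log2 intensity of Aspm, Ccna2, Mcm10 and Mki67 in each kidney by day of dosing, for WY14643, rosiglitazone and vehicle; points are arrays, bars group means and whiskers SDs. The WY14643 kidneys lie low for all 4 genes, and on day 15 they do not overlap vehicle for Aspm and Ccna2.

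Marker genes of other cells were read beside the kidney result. Under WY14643, 0 of 7 hepatocyte, 0 of 7 neutrophil and myeloid, 0 kidney tubule, 0 lymphocyte, 0 erythroid, 0 endothelial, 0 adipocyte and 0 fibroblast markers were called, and 1 of 8 macrophage markers fell. The hepatocyte markers had a lowest, median and highest mean of 5.51, 6.57 and 8.10 in treated kidneys, against 5.51, 6.11 and 7.47 with vehicle. The kidney that stood apart, WY14643 day 8 replicate 4, was the one at 8.10, against 5.51 to 6.22 in the other 4 of its group. Over the 75 kidneys the correlation of the members' mean with the hepatocyte markers, group means removed, was -0.31, a description of arrays that share RNA quality and scaling. The neutrophil and myeloid markers had a lowest, median and highest mean of 3.48, 3.72 and 5.75 in treated kidneys, against 3.40, 3.76 and 4.19 with vehicle. The highest was WY14643 day 4 replicate 2, 1 of the 2 arrays without which 5 members were called in place of 9. The lymphocyte markers averaged 4.41 to 5.01 in treated kidneys, with a median of 4.69. With vehicle they averaged 4.55 to 5.22, with a median of 4.81. Their correlation with the members' mean over the 75 kidneys, group means removed, was 0.21. The part of other cell types in the members' fall was not tested. Of 17 clock genes, 1 rose in kidney under WY14643, 4 rose and 4 fell under GW501516, and 4 rose and 2 fell under rosiglitazone. With the first 2 components of the clock genes as covariates, 5 members were called under WY14643, 1 under GW501516 and 1 under rosiglitazone. The components came from all kidneys, treated ones included, so a lost call does not tell clock from compound. Without day 8 the counts were 5, 0 and 0, from fits with fewer arrays.

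Per day, fewer members passed, with 5 treated kidneys each. On day 4 only Mcm10 was called (-0.89, adjusted p = 0.013; 0.275% of all genes were called) and on day 8 only Aspm (-0.85, adjusted p = 0.033; 0.506% of all genes). On day 15, 4 fell, at a background of 0.544%: Aspm by 1.20 ± 0.21 (limma, adjusted p = 0.00029), Mcm10 by 0.87, Ccnb2 by 0.85 and Ccna2 by 0.53. Without the kidney that stood apart, no member was called on day 8. The members' median was -0.07 on day 4, -0.22 on day 8 and -0.18 on day 15, and no member's change differed between day 15 and day 4 at an adjusted p under 0.05.

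The vehicle kidneys themselves were not level over time. From day 4 to day 8, 35 of 41 members had a higher mean, with a median of 0.24, and Cdk1 (0.58), Top2a (0.61) and Nusap1 (0.62), a spindle protein, rose, where 0.473% of all genes were called. Day 15 lay above day 4 for 33 members, with a median of 0.22. Prc1, which bundles the midzone of the spindle, rose by 0.84 and Ube2c by 0.60, and Mcm10 fell by 0.59, where 0.874% of all genes were called. The members' mean in kidney ran from 5.32 to 5.66 under WY14643 on day 15 and from 5.26 to 5.64 on day 4, against 5.49 to 6.04 and 5.39 to 5.81 with vehicle on those days.

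Under GW501516 in kidney, Mcm3 and Mcm4, helicase subunits, rose, and Ccnb2, Ccna2 and Kif20a, a motor of cell division, fell. Mcm3 read 6.02, 6.28, 6.39, 6.63 and 6.67 on day 4, 6.42, 6.65, 6.84, 7.20 and 7.67 on day 8, and 6.06, 6.70, 6.73, 6.76 and 7.13 on day 15 of GW501516. The vehicle lowest, median and highest for Mcm3 were 5.93, 6.30 and 6.49, then 5.62, 6.46 and 6.80, then 6.11, 6.40 and 6.96, overlapping on each day. Its change was 0.31 ± 0.09 (limma, adjusted p = 0.032), and 2 of its 4 other probe sets were called, the rest lying on the same side. Mcm4 rose by 0.28 (adjusted p = 0.046), and Ccnb2 fell by 0.33 (adjusted p = 0.043), Ccna2 by 0.26 (adjusted p = 0.023) and Kif20a by 0.19 ± 0.06 (adjusted p = 0.033), each on its side in 13 of 15 kidneys. This set is fragile: leaving out 1 of 15 arrays left 2 or 3 calls. They were GW501516 day 4 replicates 1, 2, 3 and 5, day 8 replicate 1 and day 15 replicates 2, 3 and 5, and vehicle day 4 replicates 3, 7 and 8, day 8 replicates 2 and 9 and day 15 replicates 3 and 4.

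Rosiglitazone lowered Ccna2, Aspm and Ube2c in kidney and raised Tk1, against the same vehicle kidneys as WY14643. Ccna2 read 5.69, 5.73, 5.89, 5.93 and 6.01 on day 4, 5.58, 5.60, 5.80, 6.19 and 6.19 on day 8, and 6.09, 6.13, 6.17, 6.21 and 6.22 on day 15 of rosiglitazone. It lay below all vehicle kidneys on day 8 and overlapped them on days 4 and 15, and the change was -0.45 (limma, adjusted p = 7.9e-05), with 15 of 15 kidneys on that side. Aspm fell by 0.55 (adjusted p = 0.0047) and Ube2c by 0.40 (adjusted p = 0.02), each with 13 of 15. Tk1 moved the other way under the 2 compounds: it read 7.48, 7.62, 7.68, 7.78 and 7.95 on day 15 of rosiglitazone, and 6.67, 7.04, 7.08, 7.21 and 7.34 on day 15 of WY14643, against a vehicle median of 7.45. Its change was 0.25 under rosiglitazone (adjusted p = 0.045), with 14 of 15 kidneys higher. Without vehicle day 8 replicate 8, or vehicle day 15 replicate 7, 7 members were called in place of 4.

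In liver, WY14643 changed 2 members past the threshold: Mcm10 fell and Tk1 rose. The median over the members was 0.19, 35 of 41 had a higher mean than with vehicle, and 7 had an unadjusted p under 0.05. Mcm10, bright in liver at a mean of 11.75, read 9.82, 10.88, 11.55, 11.78 and 11.96 on day 4, 10.90, 11.54, 11.59, 11.79 and 11.90 on day 8, and 10.91, 11.42, 11.48, 11.64 and 12.04 on day 15. The vehicle lowest, median and highest for Mcm10 were 11.39, 11.95 and 12.28, then 11.19, 11.62 and 12.08, then 11.42, 11.99 and 12.11. The groups overlapped on each day, with the lowest treated liver below all vehicle livers, and the change was -0.42 ± 0.11 (limma, adjusted p = 0.0039; 11 of 15 livers lower). Of 2 other probe sets on the same side, 1 was called, at -0.39.

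Tk1 lay low on day 4 and high on day 8 against same-day vehicle. Tk1 read 9.12, 9.64, 9.90, 10.16 and 10.36 on day 4 of WY14643, 10.50, 10.55, 10.56, 10.58 and 11.03 on day 8, and 9.82, 9.91, 10.25, 10.39 and 10.62 on day 15. With vehicle Tk1 had a lowest, median and highest of 9.92, 10.38 and 10.71 on day 4, 9.33, 9.62 and 10.31 on day 8, and 9.32, 9.84 and 10.41 on day 15. On day 4, 3 treated livers lay below all vehicle livers, on day 8 all 5 lay above them, and on day 15 the groups overlapped. The change was -0.49 ± 0.16 on day 4 (limma, adjusted p = 0.05), 0.97 ± 0.16 on day 8 (adjusted p = 1.2e-05) and 0.26 ± 0.09 over the 3 days (adjusted p = 0.049; 10 of 15 livers higher). Tk1 also moved in the vehicle livers themselves, by -0.65 ± 0.13 between day 4 and day 8 (day 8 minus day 4, adjusted p = 0.00046), where 9.73% of all genes were called. The WY14643 change on day 15 minus that on day 4 was 0.79 ± 0.22 for Tk1 (adjusted p = 0.076), which missed the threshold, and the same for day 8 minus day 4 was not tested. Without day 8 the sign turned, to -0.09, and leaving out any of 28 single arrays ended the call.

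Day 4 gave the most members an unadjusted p under 0.05 under WY14643, 19 of 41, with 36 higher and a median of 0.53, where the same median was 0.06 on day 8 and 0.06 on day 15. At the adjusted threshold Mcm7, a helicase subunit, rose by 0.44 ± 0.14 (adjusted p = 0.034), Mcm10 fell by 0.72 ± 0.19 (adjusted p = 0.0096) and Tk1 fell as above, where 6.45% of all genes were called. On day 8 only Tk1 was called (6.32% of all genes), and on day 15 none was (2.86%). Without the liver with a members' mean of 9.02, WY14643 day 4 replicate 5, the day 4 median was -0.02, and without each of the other 4 it was 0.62 to 0.67. The day 4 calls moved as well: without replicate 2, 3 members were higher and 0 lower, without replicate 1, 3 were higher and 2 lower, and without replicate 5, 0 were higher and 2 lower. Top2a read 6.35, 6.78, 6.79, 7.15 and 10.12 on day 4, against a vehicle lowest, median and highest of 5.10, 6.01 and 7.70, and Mki67 read 5.07, 6.15, 6.59, 6.73 and 9.23, against 4.86, 5.62 and 7.49 with vehicle. In both genes 1 treated liver lay above all vehicle livers and the others within their range. For Top2a the vehicle liver at 7.70 was one that stood apart. The next vehicle liver read 6.39, and the treated livers at 6.78, 6.79 and 7.15 lay above that. Without the 5 livers that stood apart, the day 4 median was 0.09, with 0 members higher and 3 lower.

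Proliferation genes often read in PPAR-alpha studies were not called in liver over the 3 days of WY14643. Mki67 changed by 0.32 (95% interval -0.21 to 0.86, limma, adjusted p = 0.54), Top2a by 0.60 (0.09 to 1.12, adjusted p = 0.13) and Cdk1 by 0.42 (0.05 to 0.80, adjusted p = 0.15). Ccnd1, the G1 cyclin that growth signals induce, changed by 0.10 (-0.37 to 0.57, adjusted p = 0.87), Mcm6 by 0.21 (-0.25 to 0.68, adjusted p = 0.66) and Cdkn1a, the p21 inhibitor and not a member, by 0.92 (-0.07 to 1.92, adjusted p = 0.27). The intervals are wide for the spread between livers given above, and a rise of 1 lies outside those of Mki67, Cdk1, Ccnd1 and Mcm6. Without the livers that stood apart Ccnd1 was -0.03 and Mcm6 was -0.06, and with the median over its probe sets Top2a was -0.0049. Markers of neutrophils and myeloid precursors rose in the same livers: 4 of 7 were called higher, and their mean had a lowest, median and highest of 5.01, 5.54 and 7.81, against 4.89, 5.36 and 6.05 with vehicle. Whether those cells add to the members' level was not tested.

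GW501516 raised 5 members in liver, all of G1, S phase or the origin. Ccnd1 read 10.02, 10.75, 11.20, 11.57 and 11.64 on day 4, 11.41, 11.42, 11.56, 11.65 and 11.73 on day 8, and 9.95, 11.60, 11.87, 12.02 and 12.08 on day 15 of GW501516. The vehicle lowest, median and highest for Ccnd1 were 9.46, 10.15 and 11.15, then 9.34, 10.66 and 11.97, then 9.26, 9.77 and 11.69. On days 4 and 15, 3 of the 5 treated livers lay above all vehicle livers, and on day 8 all 5 lay within the vehicle range, above its median. The change was 1.06 ± 0.23 (limma, adjusted p = 0.00066; 13 of 15 livers higher), and both other probe sets were called, at 1.09 and 1.16.

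Tk1 and Ccne1, the cyclin that starts S phase, rose under GW501516 and under rosiglitazone. Tk1 read 10.28, 10.56, 10.66, 10.72 and 10.80 on day 4, 9.94, 10.02, 10.27, 10.32 and 10.79 on day 8, and 10.44, 10.59, 10.87, 10.89 and 11.03 on day 15 of GW501516. Under rosiglitazone Tk1 read 10.39, 10.51, 10.53, 10.67 and 10.69, then 10.40, 10.57, 10.68, 10.99 and 11.02, then 10.57, 10.60, 10.70, 10.93 and 10.96 on those days, against the vehicle livers given above. On day 15 both compounds lay above all vehicle livers, on day 8 only rosiglitazone did, and on day 4 all overlapped. The change in Tk1 was 0.58 ± 0.09 under GW501516 (limma, adjusted p = 1.7e-06; 14 of 15 livers higher) and 0.72 ± 0.09 under rosiglitazone (adjusted p = 9.0e-09; 15 of 15).

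Ccne1 read 7.97, 8.10, 8.19, 8.30 and 8.66 on day 4 and 7.80, 7.94, 8.16, 8.20 and 8.26 on day 15 of GW501516. It read 7.46, 8.13, 8.29, 8.61 and 8.61, then 7.87, 8.00, 8.21, 8.51 and 8.68 on those days of rosiglitazone. The vehicle lowest, median and highest for Ccne1 were 7.79, 7.99 and 8.32 on day 4 and 7.11, 7.57 and 8.17 on day 15, so the groups overlapped. On day 8 all treated livers of both compounds, from 8.04 and from 8.03 upward, lay above the highest vehicle liver, 7.97. The change was 0.49 ± 0.09 under GW501516 (limma, adjusted p = 4.3e-05) and 0.56 ± 0.09 under rosiglitazone (adjusted p = 2.8e-06), with 14 of 15 livers higher under each, and the 1 other probe set was called under both.

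The helicase subunits Mcm4 and Mcm5 also rose under GW501516, Mcm4 by 0.62 ± 0.16 (limma, adjusted p = 0.0027; 13 of 15 livers) and Mcm5 by 0.63 ± 0.22 (adjusted p = 0.036; 12 of 15). Mcm4 read 9.73, 9.83, 9.88, 9.94 and 10.86 on day 8, against a vehicle lowest, median and highest of 8.45, 8.92 and 10.26, which overlap. Under rosiglitazone Rrm2, a subunit of the enzyme that makes deoxynucleotides, rose by 0.64 ± 0.20 (adjusted p = 0.016; 15 of 15) and Ccne2 by 0.24 ± 0.08 (adjusted p = 0.031; 13 of 15). Rrm2 read 10.11, 10.26, 10.68, 11.10 and 11.51 on day 15 of rosiglitazone, against a vehicle lowest, median and highest of 9.05, 9.75 and 10.69. No late cyclin, kinase, checkpoint or spindle member was called under either compound in this fit, nor were Mki67 and Top2a. The SD within groups differed between members in liver, from 0.229 for Pcna to 1.22 for Tpx2, so equal changes need not be called alike. Under 2 other settings given below, later members were called under GW501516 too. Under GW501516, 39 of 41 members had a higher mean, with a median of 0.33, whereas under rosiglitazone 12 of 41 did, with a median of -0.07. By day, rosiglitazone gave 28 of 41 members a higher mean on day 4 (median 0.09), 6 on day 8 (median -0.37) and 31 on day 15 (median 0.13), and without day 8 its median was 0.10. GW501516 gave 38, 36 and 38 on those days, with medians of 0.32, 0.28 and 0.32. At the adjusted threshold GW501516 gave 0, 3 and 2 higher members and 0 lower on those days. Over all genes 1.35%, 8.83% and 4.42% were called. Rosiglitazone gave 0 calls on day 4, 2 higher and 1 lower on day 8, and 2 higher on day 15. There 1.23%, 12.8% and 5.34% of all genes were called.

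The GW501516 count moved with the livers that stood apart. Without those 5 livers, 3 of them vehicle and none of them GW501516, 28 members were higher and 0 lower, with a median of 0.49. The 28 are more than the origin, nucleotide and G1 to S members together, so later members were among them. Under rosiglitazone 4 were higher and 1 lower without those livers, with a median of 0.05. Under WY14643 the median without those livers was 0.05. These livers were picked by the members' own mean, and dropping high vehicle livers lowers the vehicle mean, so the larger count is not independent of the choice. Of the 6 fibroblast markers, 1 fell under GW501516 and 2 fell under rosiglitazone. With the mean of these markers as a covariate, 18 members were higher and 0 lower under GW501516, with a median of 0.39. The 18 also exceed the origin, nucleotide and G1 to S members together. Under rosiglitazone 5 were higher and 0 lower with that covariate, with a median of 0.27. Genes of the circadian clock, which many cell cycle genes follow, also changed in these livers. Of 17 measured, 8 rose and 4 fell under GW501516, 8 rose and 4 fell under rosiglitazone, and 1 rose and 1 fell under WY14643. Arntl, a core clock activator, changed by -1.70, -1.52 and -0.12 under GW501516, rosiglitazone and WY14643, the last not called, and the hour of sampling is not in the labels. The first 2 components of the clock genes were taken over all livers, treated ones included. As covariates they also remove change that compounds and clock genes share, so a lost call does not tell clock from compound. With them, 1 member was called under GW501516 and 0 under rosiglitazone, where calls over all genes came to 485 in place of 2532 and to 31 in place of 2946. Under GW501516 Ccnd1 was 1.05 there (adjusted p = 0.12), Mcm5 0.96 (adjusted p = 0.14) and Ccne1 0.40 (adjusted p = 0.10), so none was called, whereas Mcm4 was 0.98 and called (adjusted p = 0.017). Tk1 was smaller under that setting, at 0.19 under GW501516 (adjusted p = 0.58) and 0.23 under rosiglitazone (adjusted p = 0.77). Under rosiglitazone Ccne1 was 0.55 (adjusted p = 0.23), Rrm2 0.57 (adjusted p = 0.77) and Ccne2 0.0014 (adjusted p = 1.0). The members' median was 0.44 under GW501516 and 0.22 under rosiglitazone, and 2 members were called under WY14643.

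**Figure D4:**
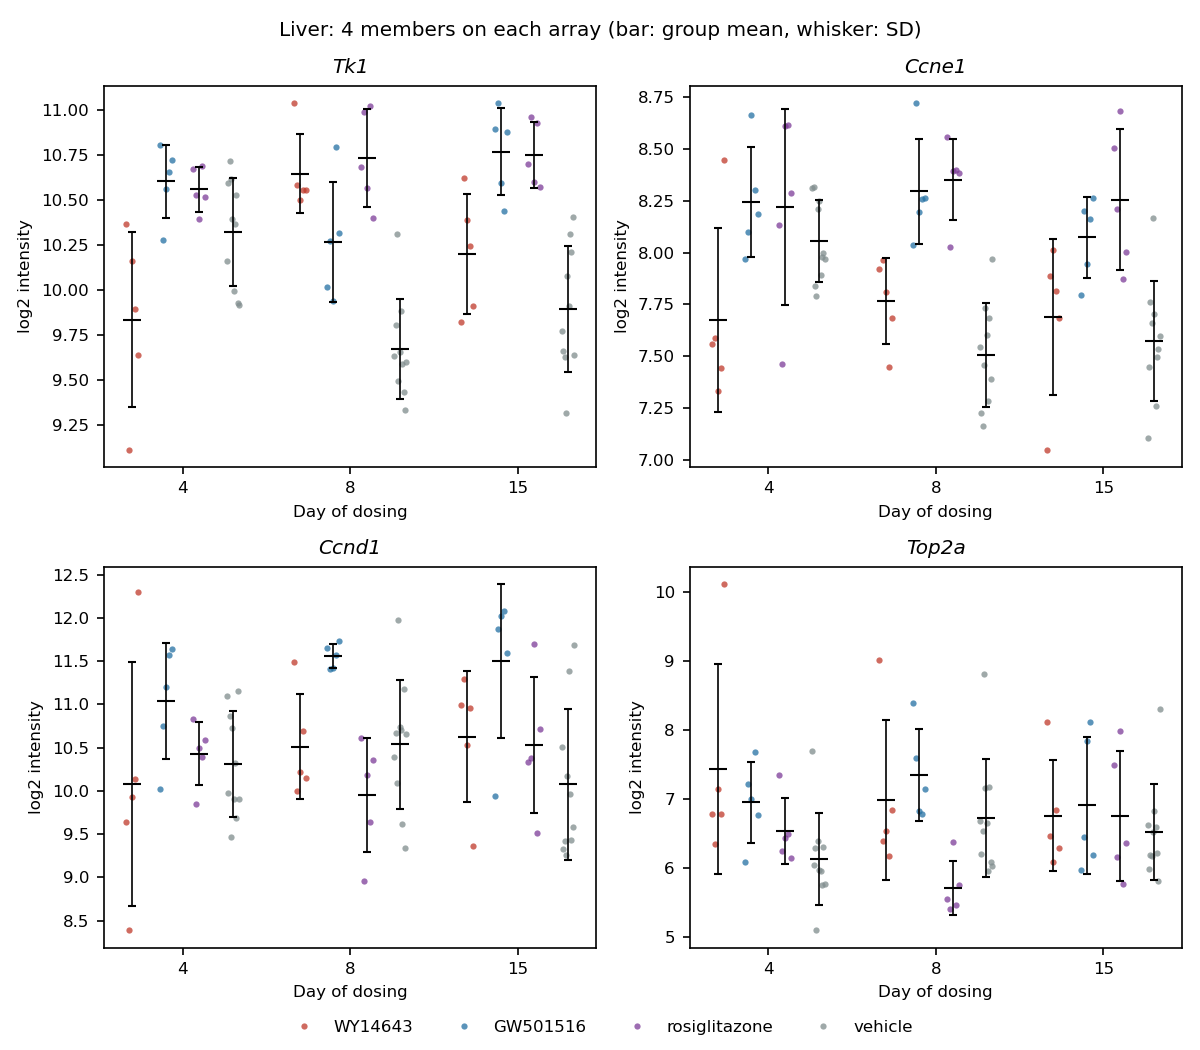
Log2 intensity of Tk1, Ccne1, Ccnd1 and Top2a in each liver by day of dosing, for the 3 compounds and vehicle; points are arrays, bars group means and whiskers SDs. Tk1 under WY14643 lies low on day 4 and high on day 8, and Top2a has single livers up to 10.12 under WY14643 and 8.81 with vehicle.

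The 3 compounds were also compared with each other in liver, at the same dose and days. Against GW501516, WY14643 gave lower Ccnd1 (-0.96 ± 0.27, limma, adjusted p = 0.024) and Ccne1 (-0.49 ± 0.11, adjusted p = 0.0017), where 4.55% of all genes were called. Against rosiglitazone, WY14643 gave lower Rrm2 (-0.85, adjusted p = 0.0048), Ccne1 (-0.56, adjusted p = 4.0e-05), Mcm10 (-0.48, adjusted p = 0.0035) and Tk1 (-0.45, adjusted p = 0.00098), where 17.6% were. Against rosiglitazone, GW501516 gave higher Ccnd1 (1.06, adjusted p = 0.013), where 3.59% were. For Tk1, GW501516 minus rosiglitazone was -0.13 with a 95% interval of -0.35 to 0.08, and for Ccne1 it was -0.07 with -0.28 to 0.14. The counts of 2, 4 and 1 members are 4.88%, 9.76% and 2.44% of the 41. Single arrays moved 2 of the counts: WY14643 against GW501516 gave 1 without WY14643 day 4 replicate 2 or day 15 replicate 5, and 4 without WY14643 day 4 replicate 1 or 3. GW501516 against rosiglitazone gave 2 without GW501516 day 15 replicate 1 and 3 without rosiglitazone day 15 replicate 3. Without the livers that stood apart the counts were 10, 6 and 8. Those livers were picked by the members' own high mean, and 2 of them were WY14643 livers, while none was GW501516 or rosiglitazone. Dropping them lowers the WY14643 mean, so the first 2 of these counts are not independent of the choice. For GW501516 against rosiglitazone no array of either compound was dropped, and the members' median stayed at 0.42.

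The effect of WY14643 in liver was set against that in kidney within the same mice, by the liver minus kidney difference of each of the 75 mice. The effect was higher in liver than in kidney for 39 of 41 members, with a median of 0.32, and 18 had an unadjusted p under 0.05. It passed the threshold, all higher in liver, for 7 members, which is 17.1%, where 4.69% of all genes were called and 2.69% were called higher. They were Birc5, the survivin of the chromosomal passenger complex (1.04 ± 0.24, limma, adjusted p = 0.0032), Aspm (1.01 ± 0.24, adjusted p = 0.005), Top2a (0.97 ± 0.22, adjusted p = 0.0022), Cdk1 (0.78 ± 0.18, adjusted p = 0.0041), Hmmr, a spindle protein (0.60 ± 0.18, adjusted p = 0.035), Bub1b, a spindle checkpoint kinase (0.52 ± 0.14, adjusted p = 0.015), and Tk1 (0.52 ± 0.10, adjusted p = 0.00036). The rule for naming covers 6 of the 7, and the gene with the smallest change was added after its value was seen.

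Birc5 had values of opposite sign in the 2 tissues. Birc5 read 7.64, 7.90, 8.21, 8.45 and 10.72 in liver on day 4 of WY14643, against a vehicle lowest, median and highest of 6.70, 7.48 and 8.59. In kidney Birc5 read 4.99, 5.81, 5.94, 6.31 and 6.43 on that day, against 5.32, 6.11 and 6.53 with vehicle. Its change over the 3 days was 0.59 in liver (adjusted p = 0.08) and -0.44 in kidney (adjusted p = 0.08), so neither was called alone. Aspm changed by 0.08 in liver and by -0.93 in kidney, while Top2a changed by 0.60 and -0.36. Without the arrays that stood apart, 5 members passed, with a median of 0.16, and on day 4 alone 0 passed in place of 2. Without vehicle day 15 replicate 10, 11 passed. Other probe sets bear on 4 of the 7: those of Top2a gave -0.12 and 0.09 with no call, those of Aspm all lay higher in liver with 1 called, and of those of Hmmr 3 of 4 and of Bub1b 1 of 2 lay higher with none called.

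**Figure D5:**
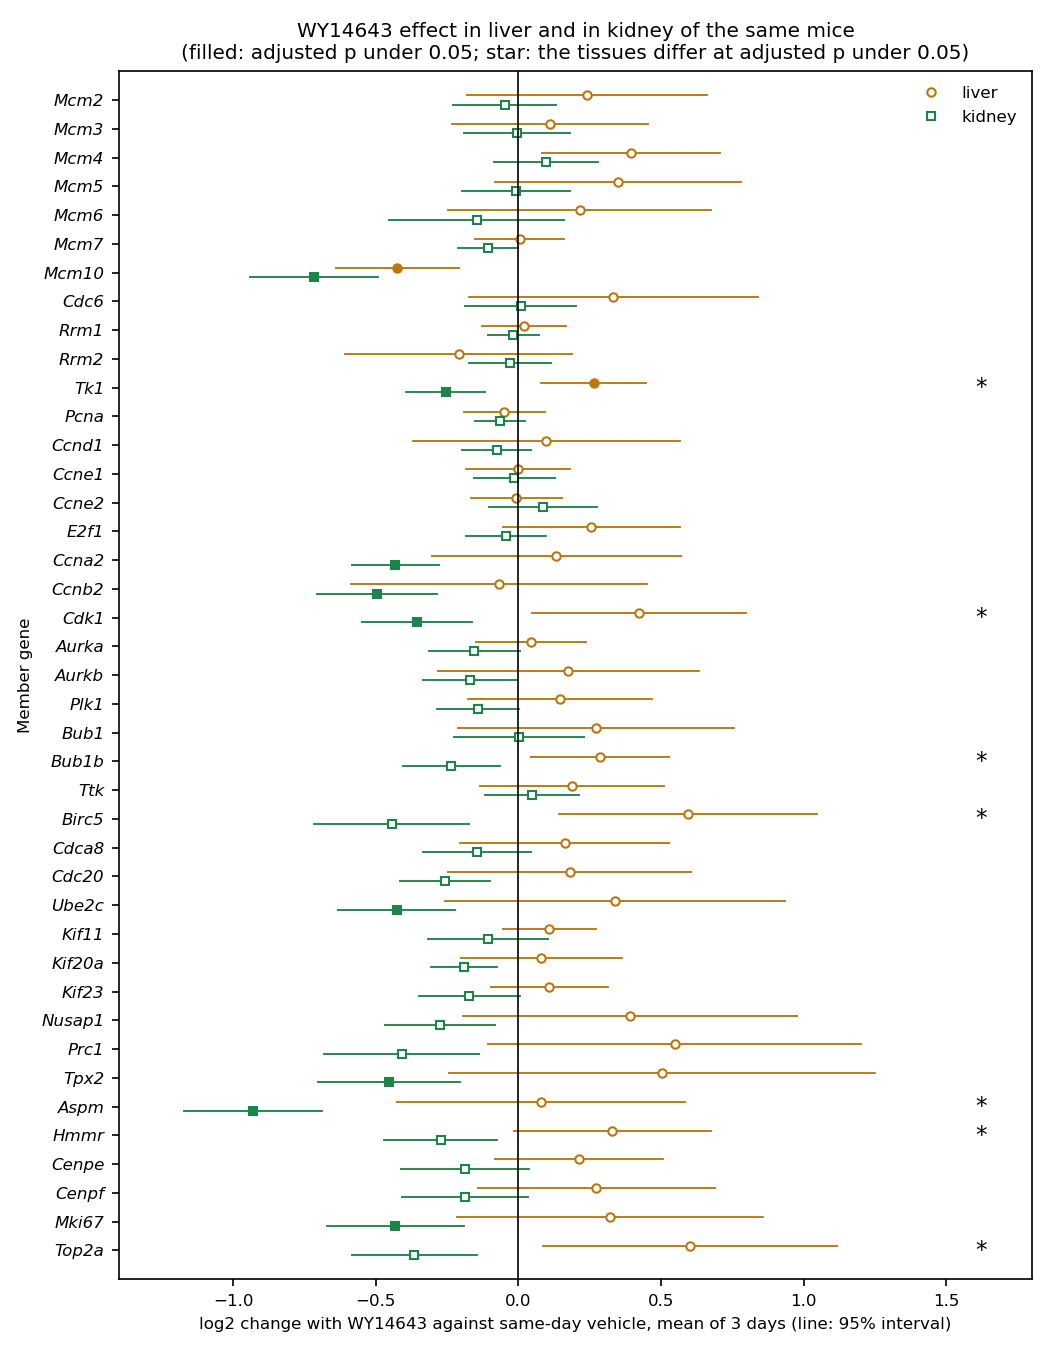
Log2 change of each member with WY14643 against same-day vehicle, averaged over 3 days, in liver and in kidney of the same mice, with 95% intervals; filled points passed an adjusted p under 0.05 in that tissue, and stars mark the 7 members whose liver minus kidney difference did. The liver values mostly lie right of the kidney values, with wider intervals.

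In heart, Rrm2 was the called member, under rosiglitazone. Rrm2 read 9.86, 10.31, 10.40, 10.42 and 10.46 on day 4, 10.03, 10.09, 10.15, 10.17 and 10.54 on day 8, and 10.02, 10.04, 10.13, 10.34 and 10.41 on day 15 of rosiglitazone. The vehicle lowest, median and highest for Rrm2 were 9.74, 10.02 and 10.25, then 9.62, 9.89 and 10.15, then 9.67, 9.89 and 10.12, so the groups overlapped. The change was 0.30 ± 0.06 (limma, adjusted p = 0.00058; 14 of 15 hearts higher). Without rosiglitazone day 4 replicate 2 the count of called members was 3, and it was 2 without rosiglitazone day 15 replicate 5 or vehicle day 15 replicate 5. With clock components as covariates Rrm2 was 0.25 and no longer called (adjusted p = 0.33), while 8 other members were called. The hepatocyte markers in heart had a lowest, median and highest mean of 7.12, 10.91 and 12.52 under rosiglitazone, against 6.76, 10.04 and 12.37 with vehicle.

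In muscle, the calls of members against vehicle were all on 1 day and under 1 compound. On day 4 of WY14643, Tpx2 fell by 1.76 ± 0.37 (limma, adjusted p = 0.005), Mcm4 fell by 0.65 (adjusted p = 0.024) and Mcm10 rose by 0.89 (adjusted p = 0.026), where 3.34% of all genes were called. Tpx2 read 5.65, 5.79, 6.92, 7.13 and 7.41, against a vehicle lowest, median and highest of 7.02, 8.60 and 9.25, so 2 of the 5 treated muscles overlapped vehicle. In muscle Tpx2 did not follow the mean of the other members (correlation -0.25, group means removed), whereas in liver it stood at 0.91. Mcm10 rested on 1 muscle, at 7.62, while the other 4 read 4.33 to 4.49. That muscle also had the highest hepatocyte marker mean, 11.74, against 6.17 to 8.52 in the other 4 muscles. All 5 together had a median of 8.33 for these markers, against 3.96, 4.89 and 6.43 as lowest, median and highest with vehicle on that day. What part liver genes on these arrays have in the 3 calls was not tested.

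Related genes outside the list were read in 4 groups, whose counts compare with the shares of all genes. Over all genes, 5.51%, 6.86% and 7.48% rose and 5.72%, 7.06% and 8.71% fell in liver under WY14643, GW501516 and rosiglitazone. In kidney 0.923%, 3.94% and 0.907% rose and 0.813%, 2.85% and 0.61% fell, in the same order. In heart 0.605%, 1.84% and 2.74% rose and 0.835%, 2.33% and 4.77% fell. The shares called in muscle are given above. Of 29 other genes of DNA replication, 14 rose and 0 fell in liver under GW501516. The largest changes were in Pole, the catalytic subunit of a replicative polymerase (0.92 ± 0.19, limma, adjusted p = 0.00029), Dtl, which marks the licensing factor Cdt1 for destruction (0.89), Uhrf1, which keeps up DNA methylation (0.84), and Cdt1 itself (0.61). Under WY14643, Gins2 (0.43), Cdc45 (0.39) and Gins4 (0.19), all parts of the active helicase, rose in liver, and under rosiglitazone Ung, a uracil glycosylase (0.59), and Gins4 (0.14) rose and Rfc3, a clamp loader subunit, fell (-0.27). In kidney GW501516 raised 5 of the 29, among them Dtl (0.43), Ung (0.35), Cdt1 (0.29) and Gins2 (0.25), and lowered Slbp, a histone mRNA binding protein (-0.13). WY14643 (0.31) and rosiglitazone (0.36) raised Ung alone there. In heart 0, 4 and 3 of the 29 rose under WY14643, GW501516 and rosiglitazone, Lig1, a DNA ligase, by 0.27 and 0.24 under the last 2, and in muscle none was called.

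Of 48 other genes of mitosis, 5 fell and 0 rose in kidney under WY14643: Pbk, a mitotic kinase (-0.50), Ckap2, a spindle protein (-0.41), Cdca3 (-0.35), Tacc3, a centrosome protein (-0.22), and Pttg1, the securin (-0.19), which was named after its value was seen. Rosiglitazone lowered 2 there, Cdca3 (-0.33) and Cdc25b, a phosphatase that activates Cdk1 (-0.24), and GW501516 raised 2, Spc25 (0.34) and Ncaph (0.23). In liver Spc25, a kinetochore protein, rose under each compound, by 0.97 ± 0.14 under WY14643 (limma, adjusted p = 2.3e-07), 1.01 under GW501516 and 0.40 under rosiglitazone, and the rest of the list gave calls only under GW501516: Ect2 (0.75), Mad2l1 (0.56) and Cks2 (-0.13). Smc2, a condensin subunit, rose in heart under GW501516 (0.21) and rosiglitazone (0.19), and muscle gave no call.

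Of 18 other G1 kinases, cyclins and E2F factors, 3, 2 and 3 rose and 1, 0 and 1 fell in liver under WY14643, GW501516 and rosiglitazone. Over all genes 11.2%, 13.9% and 16.2% were called there in either direction. E2f8, an E2F factor that represses targets, rose in liver under WY14643 (0.70), GW501516 (0.68) and rosiglitazone (0.79), and Ccnd3, a D cyclin, rose under all 3 (0.18, 0.15 and 0.23). In heart 1 rose under each of GW501516 and rosiglitazone, E2f7 (0.33 and 0.32), and 1 and 4 fell by at most 0.27. Myc, a growth-promoting transcription factor, rose in kidney under WY14643 (0.53), GW501516 (0.62) and rosiglitazone (0.60) and in liver under rosiglitazone (0.99). Of 20 inhibitors, p53 targets and checkpoint genes, 4, 4 and 2 rose and 0, 0 and 1 fell in liver under WY14643, GW501516 and rosiglitazone, beside the same shares of all genes. The one that fell was Cdkn2b, a CDK inhibitor (-0.36, adjusted p = 0.016). Gadd45a, a stress gene, rose in liver under WY14643 (0.61), GW501516 (0.57) and rosiglitazone (0.70), and Gadd45b under WY14643 (1.21 ± 0.17) and GW501516 (0.81). Wee1, the kinase that holds Cdk1 inactive, rose in liver under GW501516 (1.23 ± 0.15, limma, adjusted p = 3.4e-09) and rosiglitazone (1.37), in kidney under the same compounds (0.53 and 0.58), in heart (0.39 and 0.59) and in muscle (0.39 and 0.53). The clock components include treated arrays, so the next values do not tell clock from compound. With them as covariates, no call of Wee1 was left. Under GW501516 and rosiglitazone it was then 0.45 (adjusted p = 0.12) and 0.55 (adjusted p = 0.39) in liver, and 0.24 (adjusted p = 0.094) and 0.16 (adjusted p = 0.63) in kidney. Its sign turned in heart, to -0.18 and -0.23, and in muscle under GW501516, to -0.0010, and it was 0.15 in muscle under rosiglitazone. Cdkn3, a phosphatase of Cdk kinases, fell in kidney under WY14643 (-0.54), the only call of that list there, and Btg2, an antiproliferative gene, fell in heart under all 3 compounds (-0.39, -0.63 and -0.65).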

How the data were processed

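RNA of liver, heart, kidney and skeletal muscle was extracted with a miRNeasy kit and DNase I and 100 ng per sample was amplified for Affymetrix whole-genome mouse arrays, per the labels' protocols. The deposited values are log2 intensities that the authors made by RMA in Partek, per the submitters' processing notes, and the versions are not stated there. RMA scales the arrays it processes together to 1 distribution, so a change shared by most genes would not show. The median gene read 7.23 to 7.60 on liver arrays, 8.45 to 8.80 on heart, 6.33 to 6.71 on kidney and 6.13 to 6.49 on muscle arrays. The tissues thus do not lie on 1 scale, and levels are not compared between them. Arrays give no read depth, and the number of mice limits the precision.

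The platform's 45101 probe sets split into 34945 that named a single gene, 932 with several names, 9160 with no name and 64 controls. Names came from the platform annotation, updated through RefSeq gene IDs for 34741, with the file's own symbol for 204. A gene was represented by its probe set with the highest mean over all 300 arrays, across the unlike scales of the tissues, which gave 18193 genes. All 75 arrays of a tissue entered 1 limma model with 12 groups (R 4.3.3, limma 3.58.1, lmFit and eBayes with trend), without covariates. Compound minus same-day vehicle was averaged over days 4, 8 and 15 with equal weight, and p-values were adjusted by Benjamini-Hochberg over all genes, with calls at an adjusted p under 0.05. Liver and kidney were compared on the differences of each mouse. Every adjusted p in the text is from these limma fits, two-sided. The fit was tested on simulated data.

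Members and lists were chosen with earlier results of these data known. Per comparison the text names up to 6 called members, or up to 4 called genes of another list, with the largest changes. Alternatives were array medians, array weights, a robust prior, a replicate block, clock components, a fibroblast marker covariate, the median probe set, a filter on dim genes, leaving out day 8, the arrays that stood apart, and each array. Clock components were taken over all arrays of a tissue, treated ones included.

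The labels name WY14643, which the series' own design line spells differently. They number replicates within each group. In 36 pairs of groups no set of same-numbered arrays deviated together in every pair (44 of 180 pairs correlated above 0.1), so the numbers were not taken as pairs. No array date or batch is in the sources used here.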

Additional observations from a re-analysis of the deposited data

Results flagged for a closer look

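Single arrays stood far from the others of their group by Dixon's test, which flags about 1 in 20 groups by chance. Of 48 groups, 7 held such an array by the mean of the members. In liver these were WY14643 day 4 replicate 5 (9.02), WY14643 day 8 replicate 1 (8.02) and vehicle day 4 replicate 1 (7.36), day 8 replicate 4 (8.28) and day 15 replicate 10 (7.88), all highest. In kidney WY14643 day 8 replicate 4 was lowest (5.41), and in muscle GW501516 day 8 replicate 2 was highest (6.03).

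Of 168 groups tested for genes described above, 27 held such an array. Most liver cases were the same arrays. WY14643 day 4 replicate 5 was high for Top2a (10.12). WY14643 day 8 replicate 1 was high for Top2a (9.02), Mki67 (8.10), Cdk1 (9.57) and Tk1 (11.03). Vehicle day 4 replicate 1 was high for Top2a (7.70), Mcm5 (7.03) and Mcm6 (8.27), and vehicle day 8 replicate 4 for Top2a (8.81), Cdk1 (9.78), Mcm5 (7.69) and Rrm2 (11.56). Vehicle day 15 replicate 10 was high for Top2a (8.30), Mki67 (8.05), Mcm5 (7.11) and Mcm6 (8.45). Under GW501516, Mcm4 was high on day 8 in replicate 1 (10.86) and Ccnd1 low on day 15 in replicate 1 (9.95).

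In heart, Rrm2 under rosiglitazone was low on day 4 in replicate 2 (9.86) and high on day 8 in replicate 2 (10.54). In kidney, WY14643 day 8 replicate 1 was low for Mcm10 (6.37), and rosiglitazone day 15 replicate 3 was high for Ube2c (5.62). Vehicle day 4 replicate 10 was low for Mcm10 (7.08) and Tk1 (7.09), vehicle day 4 replicate 3 high for Ube2c (5.92), vehicle day 8 replicate 7 low for Mcm3 (5.62) and vehicle day 15 replicate 9 low for Tk1 (6.91).

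The effect of WY14643 differed between liver and kidney by the test of the difference itself for 7 members, as liver minus kidney: Birc5 (1.04), Aspm (1.01), Top2a (0.97), Cdk1 (0.78), Hmmr (0.60), Bub1b (0.52) and Tk1 (0.52).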

How the results depend on the processing

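Counts of called members moved by over 1.5 times, or to or from 0, as follows; the cause was not tested where it does not follow from fewer arrays or genes. In kidney, WY14643 (9) gave 5 with clock components, without day 8 and without dim genes, and 15 with the replicate block. Without dim genes only 22 members were tested there, and Aspm, Ccnb2, Tpx2 and Ube2c were not among them. GW501516 (5) gave 8 with array weights, 3 with the replicate block, 1 with clock components and 0 without day 8. Rosiglitazone (4) gave 8, 10, 1 and 0 under those settings and 7 with the fibroblast covariate. In liver, WY14643 (2) gave 0 with the replicate block and 1 with the median probe set, with array medians subtracted and without day 8. GW501516 (5) gave 11 with array weights, 3 with the block, 1 with clock components, 18 with the fibroblast covariate, 2 without day 8 and 28 without the arrays that stood apart. Rosiglitazone (4) gave 2 with the block and without day 8, and 0 with clock components. WY14643 against GW501516 (2) gave 0 with clock components and 10 without the arrays that stood apart, and WY14643 against rosiglitazone (4) gave 0 with clock components. GW501516 against rosiglitazone (1) gave 0 with clock components and without day 8, 2 with the fibroblast covariate and without dim genes, 6 with array weights and 8 without the arrays that stood apart. Liver minus kidney (7) gave 4 with the median probe set and without dim genes. In heart, GW501516 (0) gave 2 with clock components, and rosiglitazone (1) gave 2 with array weights and the block, 8 with clock components, Rrm2 not among them, and 9 with the fibroblast covariate. In muscle, GW501516 (0) gave 1 with array weights. Leaving out 1 array at a time gave 5 to 13, 2 to 6 and 3 to 7 for WY14643, GW501516 and rosiglitazone in kidney, 1 to 3, 4 to 7 and 3 to 5 in liver, and 1 to 3 for rosiglitazone in heart. It gave 1 to 4 for WY14643 against GW501516, 4 to 6 for WY14643 against rosiglitazone, 1 to 3 for GW501516 against rosiglitazone and 5 to 11 for liver minus kidney. The block rests on numbers that do not pair the mice, and 17 of 180 arrays correlated best with their own number.

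Of 7107 values for single genes, 6306 kept sign and call, 788 lost the call and 13 turned sign. With clock components the sign turned for Cks2 (0.045) in liver under GW501516, Rfc3 (0.20) in liver under rosiglitazone, Tk1 (0.010) for WY14643 against rosiglitazone in liver, and Wee1 in heart under GW501516 (-0.18) and rosiglitazone (-0.23) and in muscle under GW501516 (-0.0010). Tk1 turned without day 8 in liver under WY14643 (-0.090), and Cdca3 with the median probe set in kidney under rosiglitazone (0.043). Uncalled genes that turned in liver under WY14643 were Top2a with the median probe set (-0.0049), Mcm6 with array weights (-0.031) and without the arrays that stood apart (-0.059), and Ccnd1 without those arrays (-0.026) and without WY14643 day 4 replicate 5 alone (-0.087), where leaving out 1 array at a time gave -0.087 to 0.24. In kidney under WY14643, Ccna2 and Mcm10 were called under every setting run. Ccnb2 was called under every setting that tested it, and Aspm under all of those but the median probe set. The filter on dim genes removed Ccnb2 and Aspm, so they were not tested there. Birc5 was called for liver minus kidney under every setting run. Signal limits what dim genes can show: Aspm and Tpx2 lie at percentiles 21.1 and 24.2 of all genes in kidney. With the members' probe sets counted singly, liver gave 0 higher and 2 lower of 98 under WY14643, 10 and 0 under GW501516, and 6 and 1 under rosiglitazone. The fibroblast covariate, the arrays that stood apart and the single probe sets were chosen after seeing the data.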
